A study of Mus musculus with 6 samples.

Results

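The genes described here are 37 lysosomal genes, chosen by name as enzymes, membrane proteins and proton pump subunits of the lysosome, out of 31053 genes counted in 6 single-cell RNA sequencing libraries. They comprise 10 cathepsins, 13 other enzymes and soluble proteins, 8 membrane proteins and 6 subunits or partners of the proton pump, and all 37 were detected. The rule used gene names and no measured level, but it was set with earlier results of these data known. The study asked whether loss of Ndrg2 changes dendritic cells (DCs) and the wounds that receive them.

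The first 3 libraries came from bone marrow of wild-type mice cultured with GM-CSF, of which the cells in suspension were sequenced. Untreated DCs received nothing further, VD3 stimulated DCs received the active form of vitamin D3 at 1e-06 M for 24 h, and Ndrg2-KO DCs were nucleofected with a Cas9 ribonucleoprotein aimed at Ndrg2. The untreated culture was not nucleofected, so in culture the loss of Ndrg2 and the delivery of the nuclease cannot be told apart. The other 3 libraries came from splinted full-thickness skin wounds of wild-type mice on day 10, treated with a pullulan-collagen hydrogel that carried control DCs, carried Ndrg2-KO DCs, or was blank. The labels call the control DCs untreated, whereas the methods of the study describe their nucleofection with guides that have no target. Wound libraries mix the cells of the host with any transplanted cells that remained. Each condition is 1 library, so no difference between conditions has a replicate check, and every interval below covers counting error only.

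Lysosomes are acidic compartments in which a cell degrades material taken up from outside and its own worn components. The vacuolar proton pump acidifies the lumen, where cathepsins cut proteins, other hydrolases remove sugars, phosphates and lipids, and membrane proteins such as LAMP1 and LAMP2 line the wall. In DCs this machinery also prepares peptides for MHC class II, and maturation is known to alter lysosomal acidity and proteolysis. Many lysosomal genes carry an E-box type element near the start site, known as CLEAR, that is bound by TFEB and its relatives TFE3, MITF and TFEC.

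Promoter sequences (250 bases before to 50 bases after the start site, RefSeq, GRCm38.p6) were found for 30 of the 37 genes. The motif CACGTG stood in the promoters of 11 of these 30 (36.7%) and in 8.093% of 27025 promoters of all genes. Its longer form TCACGTGA stood in 7 of the 30 (23.3%) and in 1.125% of all promoters. Both motifs read the same on the 2 strands, and every TCACGTGA holds a CACGTG. A match describes these letters in this window and does not show binding. The windows below are those of the 7 genes with the longer motif and of Lamp1, Lgmn and Ctsl, whose levels return in the comparisons. Each is read on the strand of its gene, and capitals mark the motif.

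Ctsa (protective protein and cathepsin A), chr2:164833749-164833778, plus strand: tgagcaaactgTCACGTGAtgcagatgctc

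Ctsd (cathepsin D), chr7:142387908-142387937, minus strand: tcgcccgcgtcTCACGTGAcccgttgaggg

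Gla (alpha-galactosidase A), chrX:134601182-134601211, minus strand: tgagatctcggTCACGTGAgcaactctcgg

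Mcoln1 (the calcium channel TRPML1), chr8:3500462-3500491, plus strand: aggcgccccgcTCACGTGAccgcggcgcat

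Cln3 (battenin), chr7:126583340-126583369, minus strand: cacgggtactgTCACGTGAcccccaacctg

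Atp6v1a (catalytic subunit A of the pump), chr16:44139373-44139402, minus strand: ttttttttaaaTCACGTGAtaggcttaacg

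Atp6v0d1 (subunit d1 of the pump), chr8:105566050-105566079, minus strand: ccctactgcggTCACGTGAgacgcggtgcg

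Lamp1, chr8:13159089-13159116, plus strand: gggcaagatatCACGTGgtccagcgccc

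Lgmn (legumain), chr12:102439125-102439152, minus strand: ggaatgtctgtCACGTGgtccattttat

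Ctsl (cathepsin L), chr13:64370740-64370767, minus strand: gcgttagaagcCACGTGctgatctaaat

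The marked motif lies upstream of the start site in all of these windows except that of Atp6v0d1, whose motif spans it. Lamp1 holds the 6-base motif 4 times, and Gla and Ctsa hold the 8-base motif 2 times each. Among 49 further lysosomal genes with a promoter in the table, 12 (24.49%) held CACGTG and 3 (6.122%) held TCACGTGA. The motif was found both in genes whose levels differed strongly between the conditions, such as Ctsl and Gla, and in genes whose levels differed little, such as Atp6v0d1 and Cln3.

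The cultures kept 7257 (untreated), 8825 (VD3) and 7969 (Ndrg2-KO) cells, with 116461484 to 143627482 unique molecular identifiers (UMIs, each counting 1 captured transcript) per library. The wound libraries held 1948 (control DC), 5681 (Ndrg2-KO DC) and 3403 (blank) kept cells and 29675507 to 49240341 UMIs. Ndrg2 stood at 4.62, 1.42 and 0.884 UMIs per 1000000 (CPM) in untreated, VD3 stimulated and Ndrg2-KO DCs, so it was low in each. Levels here are CPM of the summed UMIs of a group of cells, and because the assay counts 3′ ends they are not divided by gene length. The summed level of 10 DC markers was 5184, 3599 and 2005 CPM in the 3 cultures. Most of it came from genes of activated DCs such as Ccl17 (3078, 1358 and 1166 CPM), Ccl22 (1225, 801 and 444 CPM) and Ccr7 (424, 713 and 211 CPM), while the lineage markers Flt3 (2.69, 1.10 and 0.794 CPM), Zbtb46 (18.8, 25.5 and 7.96 CPM) and Clec9a (2.78, 2.12 and 10.5 CPM) were low. The summed level of 8 macrophage markers was 701, 982 and 1431 CPM, that of 6 monocyte markers 1907, 997 and 3511 CPM, and that of 6 neutrophil markers 5099, 5919 and 359 CPM. The Ndrg2-KO culture thus had the highest monocyte sum and the lowest neutrophil and DC sums. Its macrophage sum was highest with Apoe (26.9, 9.32 and 583 CPM), and without Apoe the sums were 674, 972 and 849 CPM, highest under VD3. The part of these markers in the differences below was not tested.

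Lysosomal transcripts took up a larger share of the RNA in Ndrg2-KO DCs than in the other cultures. The 37 genes together made 1.1262% of all UMIs in untreated DCs, 1.0871% in VD3 stimulated DCs and 2.7446% in Ndrg2-KO DCs. The 10 cathepsins alone made 0.4557%, 0.3857% and 1.2211%. In bulk sums of this kind, fewer cells of a type and less RNA per cell cannot be told apart.

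**Figure D1:**
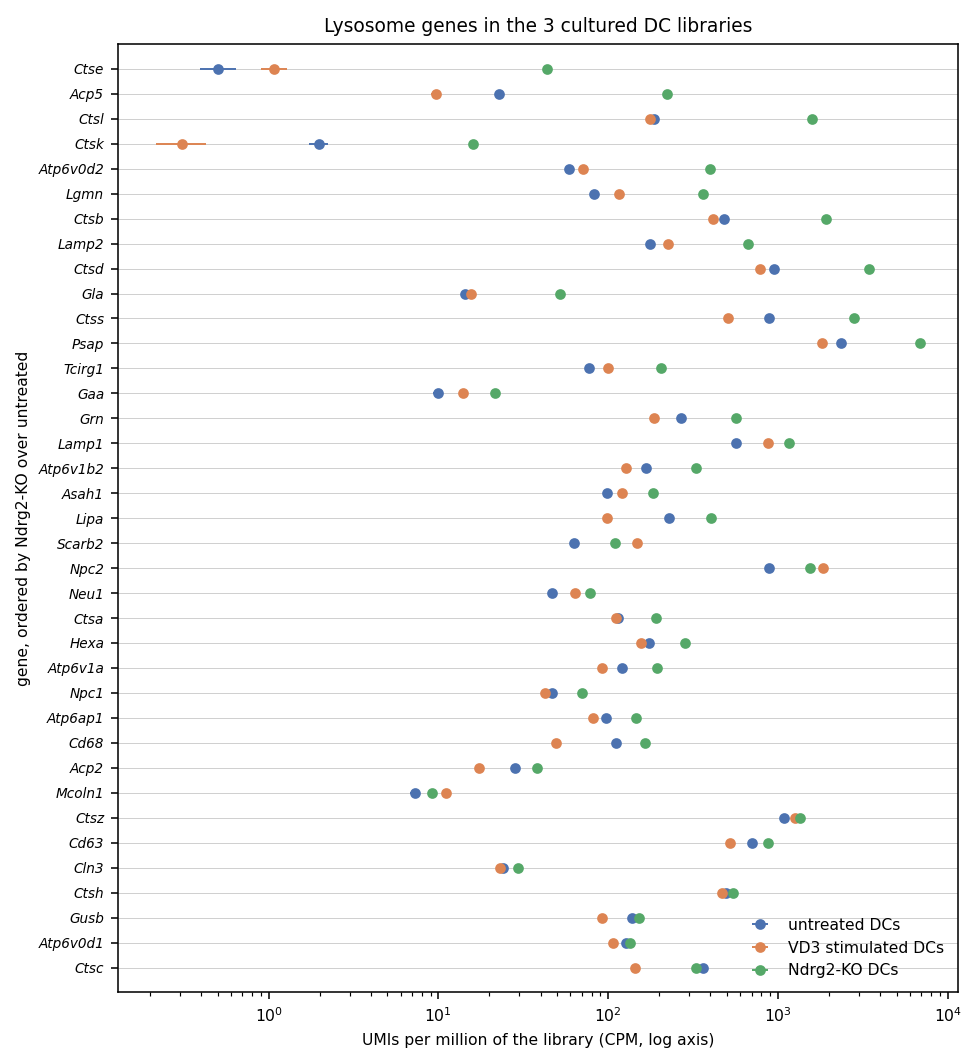
Level of each of the 37 lysosomal genes in the 3 cultured DC libraries, as CPM on a log axis, with genes ordered by their ratio between Ndrg2-KO and untreated DCs, 1 point per library and bars for the 95% counting interval. Psap has the highest point, at 6834 CPM in Ndrg2-KO DCs, and Ctse has the widest gap between Ndrg2-KO and untreated DCs (0.505 and 43.5 CPM).

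Against untreated DCs, 16 of the 37 genes were at least 2-fold higher in Ndrg2-KO DCs and none was 2-fold lower, where 8.26% of 11243 genes tested in the same way were higher and 6.90% lower. A gene was counted here when its CPM differed at least 2-fold and at least 1 of the 2 sums held 200 UMIs. The median log2 ratio of the 37 genes was 0.81, against -0.06 over the 11143 genes with at least 100 UMIs in both sums. Their intervals lay above 0 for 36 genes and below 0 for 1, Ctsc.

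Cathepsins accounted for 6 of the 16. Ctsl, an endopeptidase that also trims the invariant chain, stood at 186 CPM in untreated, 176 in VD3 stimulated and 1579 in Ndrg2-KO DCs, and the last over the first gave a log2 ratio of 3.09 (95% interval 3.07 to 3.11). Ctsb, a cysteine protease with both endopeptidase and exopeptidase activity, stood at 479, 412 and 1922 CPM (2.01, 1.99 to 2.02). Ctsd, the main aspartic protease of the lysosome, stood at 943, 779 and 3420 CPM (1.86, 1.85 to 1.87). In all of these the untreated and VD3 libraries lay close together and the Ndrg2-KO library stood apart. Ctsd shares part of its locus with another gene model on the same strand, so its reads could be split between them. Ctss, which completes invariant chain removal in antigen-presenting cells, had 890, 508 and 2819 CPM (1.66), lowest under VD3.

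Among the cultures, Ctse and Ctsk were rare outside Ndrg2-KO DCs. Ctse, an aspartic protease of endosomes, had 0.505 CPM in untreated, 1.08 in VD3 stimulated and 43.5 in Ndrg2-KO DCs, with a ratio of 6.43 (6.08 to 6.80) on the log2 scale. Ctsk, the collagen-degrading protease of osteoclasts, had 1.97, 0.309 and 16.1 CPM (3.03, 2.84 to 3.22). Ctse had the widest ratio of the 37 genes. The remaining cathepsins did not reach 2-fold between untreated and Ndrg2-KO DCs. Ctsh had 495 and 545 CPM, Ctsz 1084 and 1348, Ctsa 115 and 190, and Ctsc, which activates granule serine proteases, 362 and 329.

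Among the other enzymes and soluble proteins, 6 of 13 were higher. Acp5, the tartrate-resistant acid phosphatase of osteoclasts and activated macrophages, had 22.8 CPM in untreated, 9.63 in VD3 stimulated and 223 in Ndrg2-KO DCs (3.29, 3.23 to 3.34). Lgmn, the asparaginyl endopeptidase legumain, had 83.0, 116 and 361 CPM (2.12). Psap, the precursor of the saposins that assist glycolipid degradation, had 2356, 1819 and 6834 CPM (1.54) and was the most abundant of the 37 genes in untreated and Ndrg2-KO DCs. Gla had 14.4, 15.5 and 51.9 CPM (1.85), and Grn, which encodes progranulin, stood at 267, 186 and 567 CPM (1.09). Gaa, the acid alpha-glucosidase, had 9.88, 13.9 and 21.5 CPM (1.12).

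Membrane proteins gave 2 of 8 and the pump 2 of 6. Lamp2, which takes part in chaperone-mediated autophagy, had 177 CPM in untreated, 226 in VD3 stimulated and 668 in Ndrg2-KO DCs (1.92, 1.90 to 1.94). Lamp1 had 569, 874 and 1165 CPM (1.03) and was the gene just inside the 2-fold limit, while the pump subunit Atp6v1b2, at 0.98, was just outside it. Atp6v0d2, a pump subunit known from osteoclasts and from macrophage fusion, had 58.9, 71.4 and 396 CPM (2.75, 2.72 to 2.78), whereas its widely expressed counterpart Atp6v0d1 had 127, 107 and 134 CPM (0.07). Tcirg1, the a3 subunit of the pump, had 77.2, 99.9 and 206 CPM (1.42). With mitochondrial and ribosomal protein genes left out of the totals, Lamp1 (0.93) and Grn (0.99) did not reach 2-fold.

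Other markers of osteoclasts and giant cells differed in part along with Acp5, Ctsk and Atp6v0d2. Dcstamp, needed for the fusion of such cells, stood at 59.9, 24.5 and 103 CPM and Ocstamp at 2.42, 0.206 and 14.6 CPM in the untreated, the VD3 and the Ndrg2-KO culture, and Mmp9 at 7.63, 19.4 and 32.3 CPM. Nfatc1, at 18.8, 16.5 and 16.5 CPM, and Itgb3, at 1.10, 2.26 and 1.03 CPM, were not higher in Ndrg2-KO than in untreated DCs. Calcr, the calcitonin receptor of osteoclasts, had no UMI in any of the 3 libraries. The summed level of the 6 markers was 89.9, 62.8 and 168 CPM, and its part in the lysosomal differences was not tested.

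Compared with VD3 stimulated DCs, 20 of the 37 genes were at least 2-fold higher in Ndrg2-KO DCs and none was 2-fold lower (11.3% and 6.69% of 11185 genes). This comparison shares the Ndrg2-KO library with the preceding comparison. The 20 were 7 of 10 cathepsins, 7 of 13 other enzymes and soluble proteins, 2 of 8 membrane proteins and 4 of 6 pump subunits. Only 3 genes had intervals below 0, namely Npc2 (-0.24), Mcoln1 (-0.28) and Scarb2 (-0.43).

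Between VD3 stimulated and untreated DCs the lysosomal genes differed in both directions. Of 36 genes with enough UMIs, 2 were at least 2-fold higher and 5 at least 2-fold lower after VD3, against 2.99% higher and 6.02% lower of 10935 genes, and the median log2 ratio was -0.14. Npc2, the soluble cholesterol carrier of the lysosome, stood at 888 CPM in untreated and 1832 in VD3 stimulated DCs (1.04, 1.03 to 1.06). Scarb2, the membrane protein LIMP-2 that delivers glucocerebrosidase, stood at 62.9 and 148 CPM (1.23, 1.19 to 1.27). The lower genes were Ctsc (362 and 145 CPM, -1.33), Cd68 (111 and 49.4, -1.17), Lipa, the acid lipase (229 and 98.1, -1.22), Acp5 (22.8 and 9.63, -1.25) and Ctsk (1.97 and 0.309, -2.67). With only cells under 5% mitochondrial UMIs, Scarb2 (0.79) and Cd68 (-0.92) did not reach 2-fold and Ctsk (-2.36) had too few UMIs to be counted. By the mean over cells, Npc2 (0.80), Scarb2 (0.98) and Cd68 (-0.92) did not reach it.

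The same readout was taken over 65 further lysosomal genes outside the 37. In Ndrg2-KO against untreated DCs, 15 of the 63 with enough UMIs were higher and 2 lower, beside 8.26% and 6.90% of all genes. Among the higher genes were Abca1, a cholesterol exporter (log2 ratio 3.54), and Gpnmb, a glycoprotein of macrophages under lysosomal stress (3.01). The lower genes were the cathepsin inhibitors Cst7 (-1.98) and Cst3 (-1.31). None of 12 further subunits of the proton pump and none of the 4 transcription factors Tfeb, Tfe3, Mitf and Tfec differed 2-fold in this comparison. In VD3 stimulated against untreated DCs 0 were higher and 3 lower, beside 2.99% and 6.02% of all genes. In Ndrg2-KO against VD3 stimulated DCs 17 were higher, Tfeb (1.14), Mitf (1.09) and Tfec (1.26) among them, and 1 lower, beside 11.3% and 6.69%.

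The cultures differed in the maturity of their cells. Each cell was drawn down to 2000 UMIs and called mature when it held at least 3 of 8 markers of mature DCs, such as Ccr7, Fscn1 and Ccl22, and premature when it held at least 3 of 8 markers of premature DCs, such as Csf1r, Ccr2 and Fn1. None of the 37 genes is a marker. The premature markers Ccr2, Chil3 and Fn1 are also among the monocyte markers summed above. The mature markers Ccr7, Fscn1, Ccl22 and Il4i1 are also among the DC markers, so those sums and these classes are not independent. Mature-only cells made 41.5% of untreated, 51.0% of VD3 stimulated and 24.1% of Ndrg2-KO DCs, and premature-only cells 35.7%, 9.37% and 63.2%. The classes are ranges on 2 scales: 6.78%, 9.25% and 17.1% of the cells held 2 or 3 of the mature markers, and 30.1%, 32.4% and 28.6% held 2 or 3 of the premature markers. Another 472, 1149 and 134 cells were too shallow to be classed.

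Within premature-only cells alone, 16 of 37 genes were at least 2-fold higher in Ndrg2-KO than in untreated DCs and none was lower, against 8.48% higher and 8.43% lower of 10465 genes. Among them, Ctsb stood at 701 and 2381 CPM (untreated and Ndrg2-KO, log2 ratio 1.76), Ctsd at 1515 and 4288, Ctsl at 296 and 1957 (2.72), Psap at 3648 and 8269 (1.18) and Lamp2 at 222 and 789 (1.83). Grn, at 415 and 690 CPM (0.73), no longer reached 2-fold, and Npc2, at 494 and 1134 CPM (1.20), did. The premature-only cells of the 2 cultures were not alike in their markers, since premature markers made 1.7402% of their UMIs in untreated and 3.6075% in Ndrg2-KO DCs and neutrophil markers 0.3416% and 0.0284%. The part of this in the ratios was not tested.

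Within mature-only cells, 10 of 36 genes were higher in Ndrg2-KO than in untreated DCs and none lower, against 5.15% higher and 3.37% lower of 8571 genes. Ctsb, at 206 and 233 CPM (0.18), Ctsd, at 214 and 296 (0.47), and Lamp1, at 546 and 818 (0.58), did not reach 2-fold there. Ctsl did, at 43.2 and 277 CPM (2.68), as did Lgmn at 71.6 and 206 (1.52), Acp5 at 18.3 and 55.9 (1.61), Atp6v0d2 at 15.6 and 74.8 (2.26) and Ctse at 0.176 and 21.6 (6.94). For Ctsb and Ctsd the Ndrg2-KO ratio was thus wide in premature-only cells and small in mature-only cells, with no test of that difference between classes. Free RNA in the droplets was not subtracted from these sums, and its part in the ratios was not tested.

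**Figure D2:**
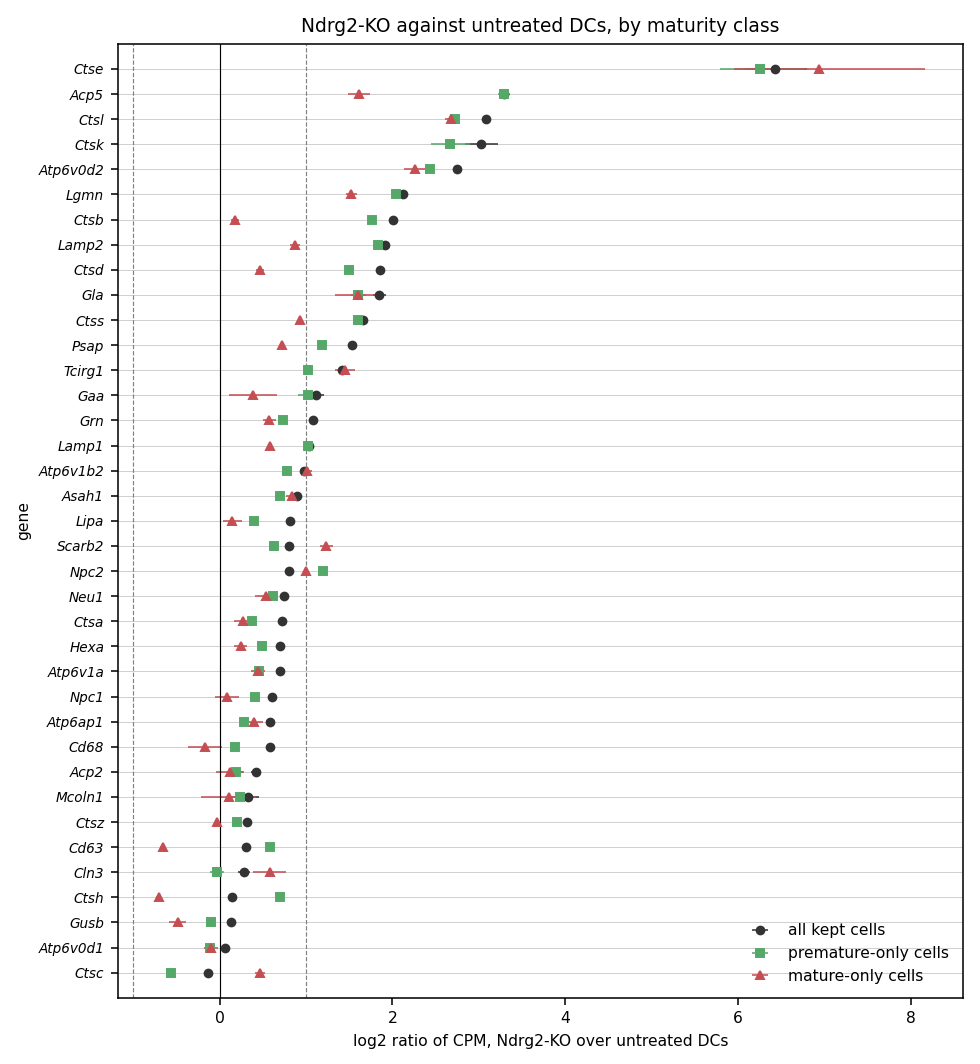
Log2 ratio of CPM between Ndrg2-KO and untreated DCs for each of the 37 genes, in all kept cells, in premature-only cells and in mature-only cells, with bars for the 95% counting interval and dashed lines at 2-fold. Ctsl stays near 3 in each (3.09, 2.72 and 2.68), while Ctsb lies at 2.01, 1.76 and 0.18.

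Within the classes the other pairs of cultures gave fewer such genes. In Ndrg2-KO against VD3 stimulated DCs, 15 genes were higher in premature-only cells (11.2% of 10362 genes) and 5 in mature-only cells (4.67% of 9381), the 5 being Ctsc, Ctse, Ctsl, Ctss and Acp5. Ctsb, Cd68 and Lipa, at 2.22, 1.75 and 2.04 in the whole cultures, had ratios of -0.03 (-0.08 to 0.01), -0.20 (-0.39 to -0.02) and -0.02 (-0.12 to 0.08) in mature-only cells. In VD3 stimulated against untreated DCs, premature-only cells had Scarb2 higher (66.9 and 199 CPM, untreated first, 1.57) and Ctsc lower (541 and 231, -1.23), where 2.86% of 9542 genes were higher and 5.83% lower. In mature-only cells Tcirg1 (1.06), Atp6v0d2 (1.75) and Scarb2 (1.09) were higher and Acp5 (-1.44) was lower, where 4.10% and 2.56% of 9408 genes were. Cd68 and Lipa, which were over 2-fold lower after VD3 in the whole culture, had ratios of -0.69 and -0.91 within premature-only cells and 0.04 and 0.17 within mature-only cells. Npc2, which was 2-fold higher in the whole culture, had ratios of 0.82 and 0.74.

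Mature DCs held less lysosomal RNA than premature DCs in every culture. The 37 genes made 0.7997% of the UMIs of mature-only and 1.437% of those of premature-only cells in untreated DCs, 0.9301% and 1.5699% in VD3 stimulated DCs, and 1.1662% and 3.1766% in Ndrg2-KO DCs. UMIs were summed per library and class and tested with edgeR's quasi-likelihood method, with the library as a block and Benjamini-Hochberg adjustment over 13002 genes. Of the 37 genes, 27 fell in mature-only cells, 1 rose and 9 did not pass an adjusted p of 0.05, beside 26.0% of all genes tested that fell and 24.2% that rose. The median log2 difference was -1.03 for the 37 genes and -0.01 for all genes. The 3 libraries are 3 treatments and each gave both classes, so the test measures the spread of the class difference over treatments and not over repeat cultures. The classes were also cut by marker levels of these same cells. A small p therefore shows that a gene followed the markers, and is no test of maturity apart from them.

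Cathepsins fell in 7 of 10 cases. Ctsd stood at 214 CPM in mature-only and 1515 in premature-only cells of the untreated culture, at 278 and 2003 under VD3, and at 296 and 4288 in Ndrg2-KO DCs. Its fitted log2 difference was -2.90 (SE 0.311, adjusted p = 0.0015, edgeR). The classes did not overlap over the 3 libraries, and the mature-only levels were alike in the 3 cultures while the premature-only levels were not. Ctsb showed the same layout, with 206 and 701, 238 and 859, and 233 and 2381 CPM and a log2 difference of -2.04 (SE 0.401, adjusted p = 0.0095, edgeR). Ctsl fell by 2.41 on the log2 scale (SE 0.172, adjusted p = 0.00065, edgeR), Ctsa by 1.81 and Ctsc by 1.16. Ctse and Ctsk also fell, from low levels.

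The 3 cathepsins that did not pass are those present at high level in mature cells. Ctss had 817 CPM in mature-only and 1044 in premature-only cells of the untreated culture, 423 and 725 under VD3, and 1558 and 3176 in Ndrg2-KO DCs, with a log2 difference of -0.45 (adjusted p = 0.14, edgeR). Ctsz, a carboxypeptidase, had 887 and 1291, 1016 and 1707, and 869 and 1479 CPM (-0.42, adjusted p = 0.092, edgeR). Ctsh, an aminopeptidase, had 803 and 349, 532 and 451, and 494 and 569 CPM, so it was higher in mature cells of 2 cultures and lower in those of the third (0.68, adjusted p = 0.14, edgeR).

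Among the other enzymes and soluble proteins 11 of 13 fell and 1 rose. Psap stood at 809 and 3648 CPM in mature-only and premature-only cells of the untreated culture, 1070 and 3561 under VD3, and 1339 and 8269 in Ndrg2-KO DCs. Its log2 difference was -1.91 (SE 0.25, adjusted p = 0.0026, edgeR). Lipa fell by 2.60, Grn by 2.21 and Gla by 1.97 on the log2 scale, and in each the mature-only levels were below the premature-only levels of the same library. Hexa, a subunit of beta-hexosaminidase, fell by 1.22 and Gusb, beta-glucuronidase, by 1.54.

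Npc2 was the exception, and the only gene of the 37 that rose. It stood at 1595 and 494 CPM in mature-only and premature-only cells of the untreated culture, 2658 and 875 under VD3, and 3196 and 1134 in Ndrg2-KO DCs. Every mature-only level was above every premature-only level, and the log2 difference was 1.87 (SE 0.177, adjusted p = 0.0011, edgeR). Its membrane partner Npc1, which takes over cholesterol from NPC2, fell by 0.71 (adjusted p = 0.0497, edgeR), a call that was lost without untreated DCs (-0.73) and without Ndrg2-KO DCs (-0.37).

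Membrane proteins fell in 4 of 8 cases. Cd68, a glycoprotein of late endosomes that marks macrophages, stood at 15.3 and 183, 15.7 and 113, and 13.6 and 207 CPM. It had the largest difference of the 37 genes, -3.18 (SE 0.262, adjusted p = 0.00083, edgeR). Lamp2 fell by 0.87 (adjusted p = 0.047, edgeR) and Cln3 by 1.02, while Lamp1 had -0.17 (adjusted p = 0.49, edgeR). The tetraspanin Cd63 stood at 829 and 646, 662 and 412, and 525 and 971 CPM, so mature-only cells were higher in the untreated and VD3 cultures and lower in the Ndrg2-KO culture (0.33, adjusted p = 0.47, edgeR). Scarb2 was also mixed over libraries (-0.24, -0.73 and 0.36).

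Proton pump subunits fell in 5 of 6 cases. Tcirg1 stood at 23.0 and 120, 48.0 and 199, and 62.7 and 244 CPM (log2 difference -1.86, SE 0.132, adjusted p = 0.00062, edgeR). Atp6v0d2 fell by 1.93, the assembly factor Atp6ap1 by 1.22, Atp6v1a by 1.03 and Atp6v0d1 by 0.58 on the log2 scale. Atp6v1b2 had -0.14 (adjusted p = 0.49, edgeR).

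**Figure D3:**
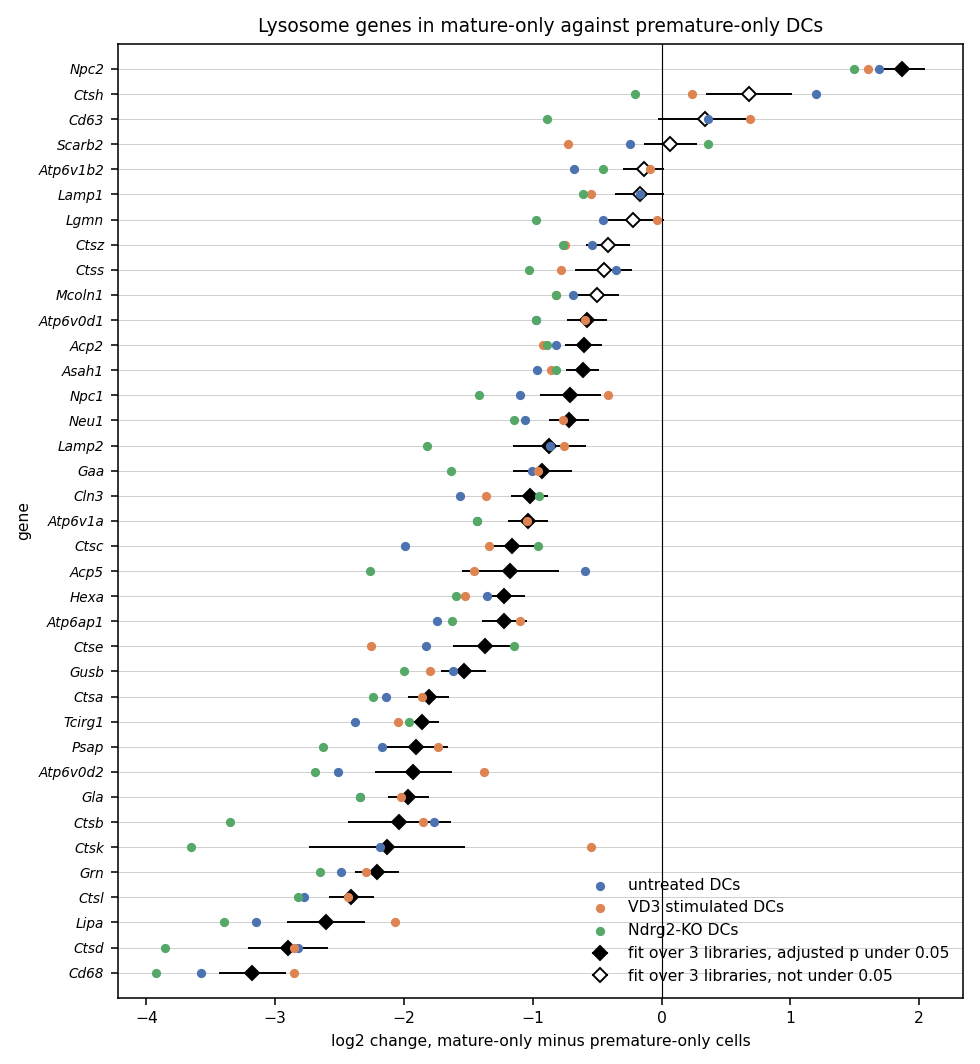
Log2 difference between mature-only and premature-only DCs for each of the 37 genes. Diamonds with bars give the edgeR estimate and its standard error over 3 libraries, and points give the ratio of CPM in each library. Npc2 lies at 1.87 and Cd68 at -3.18, and 33 genes have every library point below 0.

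By simple CPM ratios, 33 genes were lower in mature-only cells of all 3 libraries, Npc2 was higher in all 3, and Ctsh, Cd63 and Scarb2 were mixed. The fitted values lie above the mean CPM ratio of the same genes by a median of 0.27 on the log2 scale. The fit scales the sums with TMM factors and the CPM ratios do not, and only Scarb2 had a different sign in the fit and in the mean CPM ratio. Without 1 of the libraries, 9 of the 28 calls were lost. Without untreated DCs these were Acp2, Lamp2, Ctsk, Asah1, Atp6v0d1, Neu1 and Npc1 (log2 differences -0.72, -1.10, -2.36, -0.65, -0.60, -0.77 and -0.73). Without VD3 stimulated DCs they were Acp2, Lamp2, Asah1, Acp5 and Gaa (-0.59, -1.07, -0.62, -1.17 and -1.05), and without Ndrg2-KO DCs Acp2, Lamp2, Ctsk, Atp6v0d1, Acp5 and Npc1 (-0.48, -0.42, -1.19, -0.40, -0.61 and -0.37). Without Ndrg2-KO DCs, Cd63 (0.91) and Ctsh (1.11) passed as higher in mature-only cells. Other markers differed between the classes too. Neutrophil markers made 0.0714% of the UMIs of mature-only and 0.3416% of those of premature-only cells in untreated DCs. They made 0.1028% and 0.6434% under VD3, and 0.0193% and 0.0284% in Ndrg2-KO DCs. Proliferation markers made 0.0114% and 0.1389%, 0.0206% and 0.1162%, and 0.0046% and 0.0679% in the same order. The part of neutrophil RNA or of proliferating cells in the class difference was not tested.

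Levels also differed with the number of mature markers that a cell held. From cells with 0 to cells with 6 or more of the 8 mature markers, Ctsd went from 1295 to 190 CPM in untreated, 1302 to 163 in VD3 stimulated and 4654 to 486 in Ndrg2-KO DCs. In each library Ctsd was lower at every further marker from 2 markers on. Npc2 went the other way, from 445 to 1631, 716 to 2841 and 1079 to 3137 CPM. Ctsh went from 309 to 848 CPM in untreated and 383 to 570 in VD3 stimulated DCs, and had 582 and 545 CPM at the 2 ends in Ndrg2-KO DCs. Cd63 likewise went from 611 to 820 and from 358 to 713 CPM, but from 1025 down to 570 CPM in Ndrg2-KO DCs. The ends held 2249 and 2145, 1966 and 2343, and 2086 and 1235 cells.

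**Figure D4:**
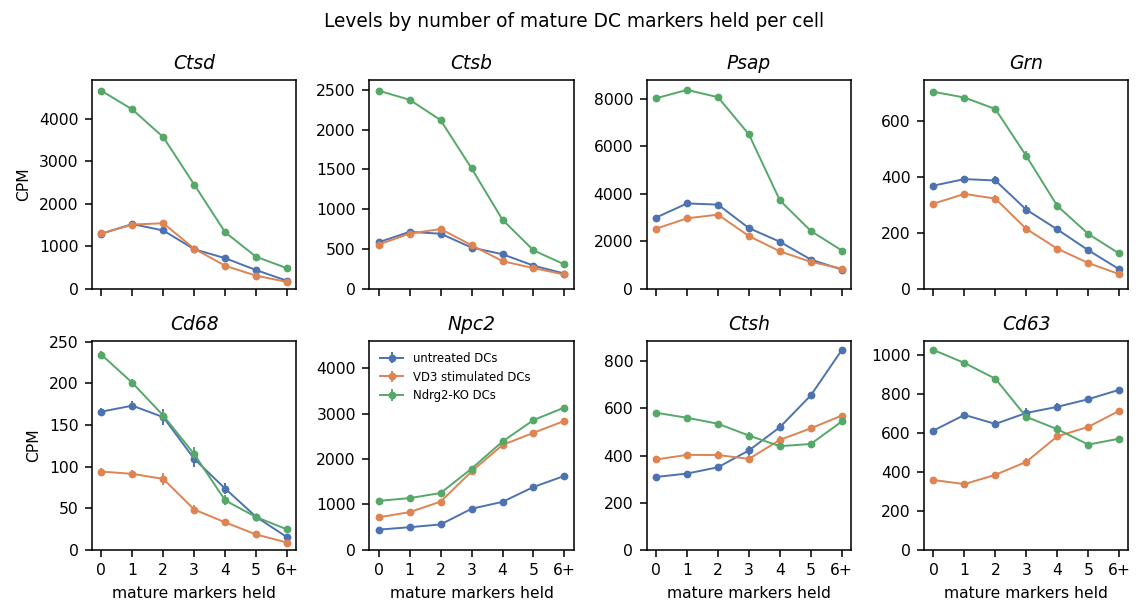
Level of Ctsd, Ctsb, Psap, Grn, Cd68, Npc2, Ctsh and Cd63 (CPM of summed UMIs, linear axes from 0) in DCs grouped by how many of 8 mature markers a cell held at 2000 UMIs, with 1 line per library and bars for the 95% counting interval. Ctsd goes from 4654 to 486 CPM in Ndrg2-KO DCs while Npc2 goes from 1079 to 3137 CPM.

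Of the 65 further lysosomal genes, 35 fell in mature-only cells, 6 rose and 21 did not pass, with 2 too low to be tested and Lyz2 left out as a class marker, beside 26.0% of all genes tested that fell and 24.2% that rose. Each of the 4 transcription factors fell, Tfec by 2.75, Mitf by 2.22, Tfeb by 1.54 and Tfe3 by 0.74 on the log2 scale. The largest fall was that of Slc11a1, the metal transporter NRAMP1 of phagosomes (-3.39, adjusted p = 0.0007, edgeR). The genes that rose were Cst3, which encodes the secreted cathepsin inhibitor cystatin C (2.48, adjusted p = 0.0014, edgeR), the sorting adaptor Gga2 (1.99), and Pla2g15, Galc, Ids and Atp6v0e. By group, 7 of 12 further pump subunits, 15 of 29 hydrolases and cofactors, 5 of 11 membrane and transport proteins and 3 of 5 sorting proteins fell.

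In the wounds, monocytes and macrophages held the largest share of lysosomal RNA among the cell types named from markers. The 37 genes made 3.17% of the UMIs of these cells over the 3 wound libraries, against 1.07% in dendritic cells, 0.869% in keratinocytes, 0.774% in fibroblasts, 0.692% in neutrophils, 0.415% in endothelial cells and 0.287% in T cells. Monocytes and macrophages were first in each wound (3.50%, 2.92% and 3.28%), but the order below them was not the same in each, as keratinocytes had 0.477%, 0.911% and 1.10% and neutrophils 0.610%, 0.652% and 0.781%. Over whole wound libraries the share was 1.5614% (control DC), 1.5797% (Ndrg2-KO DC) and 1.7732% (blank). Not every gene followed this order. Ctsk stood at 588 CPM in fibroblasts and 162 CPM in monocytes and macrophages, and Cd63 at 1155 and 767 CPM. Ctse, which was at 43.5 CPM in cultured Ndrg2-KO DCs, was at 0.328 CPM in wound monocytes and macrophages.

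The 3138 wound monocytes and macrophages were divided by clustering that left the 37 genes out of the variable genes. Among the clusters were a Gpnmb-led group (687 cells, led by Mfge8, Gpnmb and Lpl) and a macrophage group labelled C1q (683 cells). The latter was led by Igfbp4, Vcam1 and Ccnb1ip1, and its label stands for a general macrophage marker list that holds C1q genes. The others were a Nos2-led group (540 cells), monocyte-like cells (506 cells, Ly6c2) and a group numbered 4 (423 cells, with Il10, Ccr2 and MHC class II genes). They also included resident-like macrophages (272 cells, Cd209 family genes) and 27 cells with interferon response genes, too few to describe. The clusters were made from these same cells, so their differences are described without a test. The Nos2-led group had 19 cells in control DC, 436 in Ndrg2-KO DC and 85 in blank wounds.

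Lysosomal RNA was highest in the Gpnmb-led group, with 4.65%, 4.16% and 4.09% of UMIs in control DC, Ndrg2-KO DC and blank wounds. C1q macrophages had 3.43%, 3.25% and 3.58% and resident-like macrophages 3.59%, 3.72% and 3.73%. Monocyte-like cells had 1.55%, 1.45% and 1.55%, wound dendritic cells 1.46%, 1.14% and 1.08%, and mature dendritic cells 0.671%, 0.689% and 0.700%. The 3 libraries differed less within a type than the Gpnmb-led, monocyte-like and mature dendritic cells differed from each other.

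Only the Gpnmb-led group had genes of the 37 that were at least 2-fold higher than in the other monocytes and macrophages of all 3 wounds, 4 of 36 with enough UMIs, where 0.915% of 8084 genes were. In C1q, Nos2-led, monocyte-like, group 4 and resident-like cells the count was 0, where 1.08%, 2.14%, 1.71%, 0.334% and 4.37% of all genes were higher. Atp6v0d2 stood at 255 CPM against 11.1 in the other cells of control DC wounds, 202 against 22.5 in Ndrg2-KO DC wounds and 125 against 8.06 in blank wounds. Ctsk stood at 282 against 22.1, 592 against 104, and 433 against 47.4 CPM, and Acp5 at 218 against 46.4, 385 against 70.0, and 266 against 59.0 CPM. These 3 genes were also among the 10 leading genes of the cluster although they took no part in the clustering. Ctsl stood at 5003 against 2496, 5164 against 2374, and 5144 against 2104 CPM, just past the limit in control DC wounds and with log2 ratios of 1.12 and 1.29 in the others. Psap (1.35, 0.90 and 1.03), Ctss (1.66, 1.15 and 0.76) and Lipa (0.83, 1.19 and 0.99) were short of it in at least 1 wound.

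Acp5, Atp6v0d2, Ctsk and Ctsl were also among the 16 of 37 genes at least 2-fold higher in cultured Ndrg2-KO than untreated DCs. Gpnmb, by which this wound group was named, stood at 118, 160 and 948 CPM in untreated, VD3 stimulated and Ndrg2-KO DCs. Its high level in the wound group follows from that naming and is no separate likeness. The summed level of 6 fibroblast markers in Gpnmb-led cells was 200, 151 and 182 CPM, where fibroblasts had 679, 386 and 717 CPM of Ctsk, and that of the 6 osteoclast and giant cell markers was 76.8, 336 and 421 CPM. The part of either in the Ctsk levels was not tested.

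**Figure D5:**
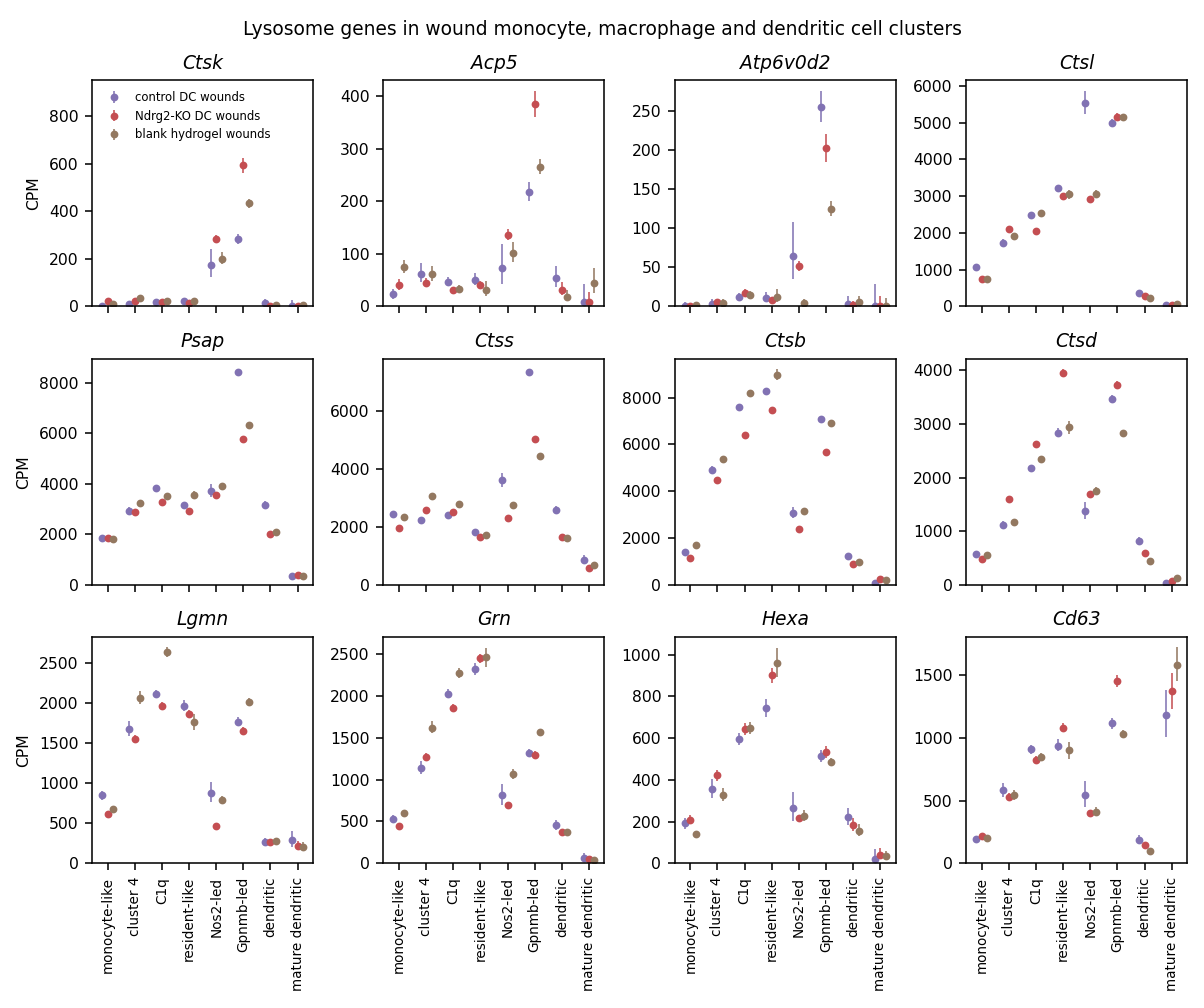
Level of 12 lysosomal genes (CPM of summed UMIs, linear axes from 0) in 6 groups of wound monocytes and macrophages and 2 groups of wound dendritic cells, with 1 point per wound library and bars for the 95% counting interval. Ctsk, Acp5 and Atp6v0d2 stand highest in the Gpnmb-led group, and Ctsb stands between 1152 and 1724 CPM in monocyte-like cells.

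Monocyte-like cells were low in many lysosomal genes, 12 of 36 being at least 2-fold lower than in the other cells of all 3 wounds, where 8.37% of 8084 genes were. Ctsb stood at 1398, 1152 and 1724 CPM in monocyte-like cells of control DC, Ndrg2-KO DC and blank wounds, against 7205, 4977 and 6816 CPM in the other cells. Ctsd stood at 573, 489 and 552 CPM in monocyte-like cells (log2 ratios -2.19, -2.41 and -2.13) and Cd63 at 190, 219 and 200 CPM (-2.31, -1.86 and -2.09). The other lower genes were Ctsk, Ctsl, Lgmn, Hexa, Lipa, Grn, Lamp1, Atp6v1a and Atp6v0d2. Ctsc, Ctsz, Npc2 and Lamp2 were not among them, with Ctsc at 848, 910 and 773 CPM (0.23, 0.05 and 0.09). Of the 62 further lysosomal genes with enough UMIs, 14 were lower and 1, Plbd1, was higher in monocyte-like cells, beside 8.37% and 1.71% of all genes. The Gpnmb-led group had 2 of these higher, Igf2r and Gpnmb, which led it, beside 0.915% of all genes, and 1 lower, Plbd1. Resident-like macrophages had 2 higher and 3 lower (4.37% and 5.33% of genes). In C1q, Nos2-led and group 4 cells 0 were higher, and 2, 4 and 1 were lower (2.94%, 3.90% and 2.33%).

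The other groups differed in fewer genes. Nos2-led cells were lower in Lgmn (881, 462 and 792 CPM, log2 ratios -1.02, -1.81 and -1.27) and Lipa, where 3.90% of all genes were lower. C1q macrophages were lower in Acp5, Atp6v0d2 and Ctsk (2.94% of genes), resident-like macrophages in the same 3 (5.33%), and group 4 in Atp6v0d2 and Ctsk (2.33%). The comparison cells of each of these include the Gpnmb-led group, in which those genes were high. Resident-like macrophages had the highest levels of Grn (2318, 2445 and 2457 CPM) and Hexa (743, 900 and 960 CPM) in each wound, without reaching 2-fold in all 3.

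The maturity difference of the cultures was looked for among wound dendritic cells, after the culture values had been seen. Mature dendritic cells (9, 18 and 27 cells) and other dendritic cells (32, 69 and 54 cells) were compared for the 30 genes with at least 20 UMIs in each library. The 20 UMIs counted both groups together, so a gene could pass through the other dendritic cells alone. In all 3 wounds, 13 genes were at least 2-fold lower in mature cells and 1 was higher, against 11.3% lower and 5.76% higher of 3701 genes. Psap stood at 343 and 3164 CPM (mature first) in control DC wounds, 392 and 2008 in Ndrg2-KO DC wounds, and 355 and 2085 in blank wounds. Ctsb stood at 61.0 and 1227, 264 and 884, and 209 and 980 CPM. The others were Ctsa, Ctsc, Ctsd, Ctsl, Ctss, Lamp2, Cd68, Hexa, Lipa, Grn and Asah1. Of the 13 lower genes, 12 were also called lower in culture, where the call was by adjusted p and not by 2-fold. Ctss was lower in mature-only cells of each culture by CPM but did not pass there. Called lower in culture but not 2-fold lower in all 3 wounds were Gla, Gusb, Npc1, Tcirg1, Atp6v0d1, Atp6v1a, Atp6ap1, Acp5 and Neu1. Of these, Acp5 was higher in mature cells of blank wounds (log2 ratio 1.30). Several of the 13 lower calls rest on few UMIs in mature cells, Lipa on 0, 2 and 1 and Cd68 on 0, 11 and 9 UMIs. Ctsa rests on 1, 15 and 10, Hexa on 3, 11 and 12, and Ctsd on 5, 21 and 44 UMIs.

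Cd63 was the gene that was higher, at 1183 and 185, 1370 and 145, and 1584 and 96.7 CPM (log2 ratios 2.68, 3.24 and 4.03). Mature cells were well above the other dendritic cells in each wound, whereas in culture the direction was mixed. Npc2, which rose with maturity in culture, stood at 1259 and 782, 845 and 688, and 699 and 631 CPM (0.69, 0.30 and 0.15) and did not reach 2-fold in the wounds.

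Between wounds, the lysosomal genes of monocytes and macrophages differed little. With Ndrg2-KO DCs against control DCs, 0 of 36 genes with at least 50 UMIs differed 2-fold, where 3.34% of 9461 genes did, and the ratios ran from -0.76 (Atp6v0d2) to 0.84 (Ctsk). Ctsb stood at 6504 CPM in control DC, 4603 in Ndrg2-KO DC and 5982 in blank wounds, and Ctsd at 2374, 2391 and 2109 CPM. With blank hydrogels against control DCs, Ctsk alone passed 2-fold, at 195 against 96.3 CPM (1.02, 0.90 to 1.13), where 2.58% of 8905 genes differed 2-fold. It did not reach 2-fold without the highest 6% of Scrublet doublet scores (0.90), with median-ratio scaling (0.99) and by the mean over cells (0.40). These 2 comparisons share the control DC library. The Gpnmb-led group, in which Ctsk was high, had 166 of 653 cells in control DC, 186 of 1451 in Ndrg2-KO DC and 335 of 1034 in blank wounds, and within that group Ctsk stood at 282, 592 and 433 CPM. Within it, Ctsk was 2-fold higher in Ndrg2-KO DC than control DC wounds (1.07), the only gene of 36 to differ 2-fold, where 2.39% of 5226 genes did. Atp6v0d2 was lower in blank than control DC wounds (-1.03), again alone of 36 genes, where 2.19% of 6938 genes differed. In the same comparison monocyte-like cells were higher in Acp5 (1.71, 1.10 to 2.38) and Acp2, a lysosomal acid phosphatase (1.04, 0.54 to 1.58), where 3.92% of 4262 genes differed, and Nos2-led cells in Acp2 (1.14, 0.25 to 2.18), where 10.8% of 2900 did. These rest on 25, 40 and 11 UMIs in the control DC library.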

How the data were processed

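The 37 genes and every list were chosen with earlier results of these data known. The libraries were made with 10x 3′ chemistry. The authors deposited tables of UMI counts, 1 row per gene and barcode, which per the file headers come from Cell Ranger 3.1.0 (DCs) and 6.0.0 (wounds). The methods of the study name mm10 and the labels mm9, and the gene set is of the GRCm38 type. The submitters' processing notes name Seurat 3.1.1.

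A cell was kept with 300 or more genes, fewer than 100000 UMIs and a mitochondrial share below 10%. UMIs were summed per gene over the cells of a library, class or type and scaled to 1000000 (CPM), with exact Poisson intervals, and ratios took exact conditional binomial 95% intervals. Conditions, with 1 library each, were not tested. A gene was called at 2-fold with 200 UMIs in 1 of 2 sums (50 in wound classes, where both sums together were counted for types). Maturity classes were tested with edgeR 4.0.16 in R 4.3.3 (quasi-likelihood, library block, TMM, filterByExpr, Benjamini-Hochberg, threshold 0.05, 6 sums, 2 residual degrees of freedom). The samples carry no replicate numbers, and the block is the library.

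Wound cells were clustered with Seurat 5.3.0 (2000 variable genes without the 37, 15 components, 15 neighbours, resolution 0.5), and those with myeloid markers were clustered again. A cluster was named with at least 3 markers at 50 CPM and 2-fold over the other cells. Cluster 6, with neutrophil genes and 74.1% of its cells among the top doublet scores, and cluster 7, with a median of 1612 UMIs, were left out of the monocytes and macrophages. Doublets were scored with Scrublet in scanpy 1.11.5 and otherwise kept. Libraries shared 1 to 19 barcodes in pairs. All 37 genes could be named, and of other genes those of the lysosomal and marker lists.

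Tested on simulated data for the maturity comparison, the fit recovered 74 of 100 genes changed by 1 and 100 of 100 changed by 2 on the log2 scale. The simulated 2-library ratios fell inside their intervals for 96.0% to 96.5% of 200 changed genes. The first simulation changed 200 of 13002 genes alike in every library, far fewer than were called in the data. The second drew counts with counting error only, so its coverage was built in. Neither gives the error of the real comparisons. Alternatives changed the cell filters, scaling, count minimum, class limits, clustering, doublets, block and test (DESeq2 1.42.0), left out each library, and, chosen after seeing the data, took ratios within classes, left out the Nos2-led cluster and compared wound dendritic cells with a minimum of 20 UMIs.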

Additional observations from a re-analysis of the deposited data

Results flagged for a closer look

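Of the 37 genes, 3 differed between mature-only and premature-only cells in opposite directions in different cultures, with counting intervals that left out 0. For Cd63, which encodes a tetraspanin of late endosomes, the log2 ratio of CPM was 0.36 in untreated DCs, 0.68 in VD3 stimulated DCs and -0.89 in Ndrg2-KO DCs. For Ctsh, an aminopeptidase, it was 1.20, 0.24 and -0.205. For Scarb2, a membrane protein of the lysosome, it was -0.24, -0.73 and 0.36. Every culture is 1 library, so these differences between cultures were not tested.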

How the results depend on the processing

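No difference between conditions has a replicate check, since each condition is 1 library, and direction changed for called genes only within mature-only cells. There, VD3 stimulated against untreated DCs gave log2 ratios of 0.0356 for Cd68 and 0.1667 for Lipa, and Ndrg2-KO against VD3 stimulated DCs gave -0.03 for Ctsb, -0.2049 for Cd68 and -0.0197 for Lipa, for which the cause was not tested. Higher genes in Ndrg2-KO against untreated DCs numbered 14 to 19 over the alternatives that keep all classes, against 16, and 10 within mature-only cells. Against VD3 stimulated DCs they numbered 15 to 26, against 20, apart from 5 within mature-only cells. The fewer cells and the class composition of these sums differ by construction. VD3 stimulated against untreated DCs gave 7 genes past 2-fold, and 4 under 5% mitochondrial UMIs, 4 by the mean over cells, 2 within premature-only and 4 within mature-only cells, for which the cause was not tested. Blank against control DC wounds gave 1 gene, Ctsk, and 0 without the highest 6% of Scrublet scores, with median-ratio scaling or by the mean over cells. Ndrg2-KO DC against control DC wounds gave 0 under every alternative run, also without the Nos2-led cluster.

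Mature-only against premature-only DCs gave 28 calls, 17 (1 higher, 16 lower) without the replicate block, in which the library is no term, and 21 to 24 without 1 library. The other alternatives gave 21 to 29, DESeq2 28 among them, and 16 genes were called under all 13 alternatives: Atp6ap1, Atp6v1a, Cd68, Cln3, Ctsa, Ctsb, Ctsc, Ctsd, Gla, Grn, Gusb, Hexa, Lipa, Npc2, Psap and Tcirg1. The 4 genes high in a wound macrophage type became 3 at resolution 1.0 or without the highest doublet scores, and 5 to 6 without 1 wound library.

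Depth limited Ctse and Ctsk most in culture, and in wounds the mature dendritic cells, with 9 to 27 cells a library.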
